A study of Mus musculus with 13 samples.

Results

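Malat1 and Neat1 are long non-coding RNAs that stay in the nucleus. The 2 genes were taken by symbol from the gene lists of both experiments, which hold 57010 genes in all, and each symbol matched 1 identifier. Malat1 collects in nuclear speckles, the bodies that store splicing factors, and is processed at its 3′ end by RNase P, which frees a small tRNA-like RNA and leaves an end built from an encoded A-rich tract. Neat1 is the RNA scaffold of paraspeckles, nuclear bodies that hold RNA-binding proteins such as NONO and SFPQ. Its gene gives a short polyadenylated form and a long form, and only the long form builds the paraspeckle. Both RNAs are made in most mouse tissues, and Malat1 is among the most abundant RNAs of single-cell libraries.

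The cells were barcoded by split-pool indexing with Parse kits, in which fixed cells pass through rounds of wells. Parse samples 1 to 4 (WT kit) and Mini samples 1-A, 1-B, 2-A and 2-B (Mini kit) are thymic lobes of female C57BL/6N mice aged 2 months, from 2 mice in each experiment. Which lobes share a mouse could not be taken from the labels, so the 8 lobes are not 8 independent animals and p-values over lobes measure mainly the spread between lobes. A further 16 samples of the WT kit are labelled only as a mixture of thymus and spleen with control and chronic stress treatment, and they are given as ranges and medians. The study calls them non-thymic and unrelated to its comparison. A class with the DP-R markers held at least 50 cells in 8 of these samples.

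The 8 thymic samples held 3964 to 14186 cells after quality control, with median depths of 2306 to 3900 unique molecular identifiers (UMIs) per cell. The thymocyte genes Rag1 and Dntt stood at 738 CPM or more and 432 CPM or more in the 8 thymic samples, and at 28.3 CPM or less and 34.1 CPM or less in the 16 others. Ribosomal RNA took 12.9% to 27.4% of the UMIs of a thymic sample. Levels are therefore given as CPM, the count of a gene scaled to a fixed total of UMIs outside the ribosomal RNA genes Rn18s-rs5, mt-Rnr1 and mt-Rnr2.

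The genes are neighbours on mouse chromosome 19 (GRCm38), both on the minus strand and both annotated as long intergenic non-coding RNA. Malat1 (ENSMUSG00000092341) spans chr19:5795690-5802672, and its main transcript is a single exon of 6983 bases. Neat1 (ENSMUSG00000092274) spans chr19:5824708-5845478, with a single-exon long transcript of 20771 bases, and 22035 bases lie between the genes. The short Neat1 transcript lies wholly within the long one, between 5842307 and 5845476, so the deposited gene counts do not separate the forms.

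The 3′ ends could bear on the measurement, since the RNA is copied with primers that include oligo-dT. Whether A-rich tracts changed the counts of either gene was not tested. In the following GENCODE M21 sequences of GRCm38, the capitals in the first and second mark an A-rich tract leading into GCAAAA, and those in the third the polyadenylation signal.
Malat1 (chr19:5795952-5796029, minus strand): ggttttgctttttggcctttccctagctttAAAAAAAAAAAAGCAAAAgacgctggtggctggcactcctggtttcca
Neat1 long form (chr19:5824708-5824748, minus strand, last bases of the transcript): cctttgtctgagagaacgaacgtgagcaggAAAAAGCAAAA
Neat1 short form (chr19:5842307-5842366, minus strand): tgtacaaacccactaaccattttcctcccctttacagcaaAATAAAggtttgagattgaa
The Malat1 tract opens with a run of 12 As, the longest in that transcript. The longest run in the long Neat1 transcript is 7 As. Runs of 6 or more As number 5 in Malat1 and 7 in the long Neat1 transcript, which is 0.716 and 0.337 per kb.

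Malat1 made up more than 1 in 100 of the UMIs outside ribosomal RNA in every thymic sample. Its level was 16155, 18102, 14130 and 14974 CPM in Parse samples 1 to 4, a mean of 15840 ± 1721 CPM (SD, n = 4). In Mini samples 1-A, 1-B, 2-A and 2-B it was 17729, 17021, 20000 and 18143 CPM, a mean of 18223 ± 1272 CPM (SD, n = 4). The ranges of the kits overlapped, and the kits were run on different mice, so kit and mouse cannot be told apart. Malat1 ranked 1 to 4 among all genes outside ribosomal RNA in the 8 samples, and at least 99.9% of cells held a UMI of it.

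Neat1 was far less abundant. Its level was 264, 225, 224 and 242 CPM in Parse samples 1 to 4 and 254, 237, 272 and 280 CPM in Mini samples 1-A, 1-B, 2-A and 2-B. The means were 239 ± 18.7 CPM and 261 ± 19.4 CPM (SD, n = 4 each). A Neat1 UMI was found in 43.1% to 53.6% of cells, and Neat1 ranked 684 to 911. The share of cells depends on depth. With each cell of 1000 or more UMIs outside ribosomal RNA thinned at random to 1000, it was 19.6% to 25.1%. No cell type of these samples is known to lack Neat1, so no background share could be set beside these shares. Per kb of exon, Malat1 stood at 2268 ± 246 CPM and Neat1 at 11.5 ± 0.902 CPM in the Parse samples (SD, n = 4). For Neat1 this used the 20771 bases of the long form. The counts do not separate the forms, and the value would be higher if most UMIs came from the short one.

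Thymocytes were split into classes by clustering without Malat1, Neat1, ribosomal RNA genes and the genes of the lists used below. The names stand for clusters with the marker genes of a stage: DN (double-negative), S phase, G2 and mitosis, DP-R (resting double-positive cells, which rearrange T cell receptor alpha), DP-S (double-positive cells with signs of selection), SP-CD4 and SP-CD8 (single-positive). DP-P is the S phase class and the G2 and mitosis class together, and cycling cells of other stages may be among them. All these names mean "like" that stage, and each class held at least 71 cells in each of the 8 samples. Clusters whose markers fitted no class or more than 1, or that came almost wholly from 1 sample, were as a rule left unnamed and out of the comparisons. Exceptions included a Mini cluster with S phase and mitotic markers, kept in G2 and mitosis. The largest S phase clusters, of 1878 Parse and 952 Mini cells, also had 10 of 10 mitotic markers raised. A G2 and mitosis cluster of 1415 Parse cells had 9 of 10 S phase markers raised. These were named by the marker set with the larger mean rise, so the cycling classes are not cleanly parted. Cells with markers of both DP-S and SP-CD4 were kept as a class of their own. Some clusters named DP-R had only part of the DP-R markers raised. These included 4 of 6 in a Parse cluster of 2218 cells and 3 of 6 in a Mini cluster of 1400 cells. The largest unnamed cluster in the thymic samples held 2588 Parse cells led by Tox and Arap2. A Parse cluster of 311 cells with mitotic markers, nearly all from 1 sample, was also unnamed. With it in DP-P the log2 fold changes below were -0.78 for Malat1 and -0.86 for Neat1. Unnamed too were clusters of 1232 Parse and 159 Mini cells with S phase and mitotic markers beside those of mature single-positive cells. Counting these in DP-P was not tried.

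**Figure D1:**
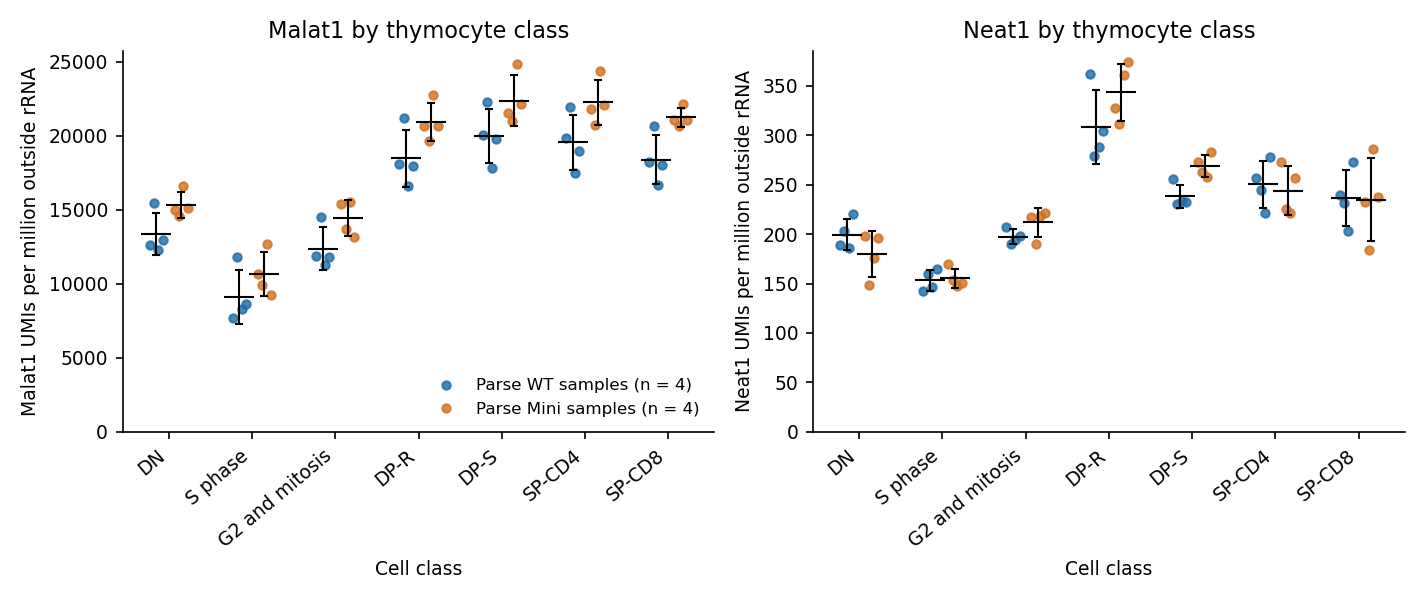
Level of Malat1 (left) and Neat1 (right) in CPM outside ribosomal RNA, by thymocyte class. Each point is 1 tissue sample (blue, Parse WT, n = 4; orange, Parse Mini, n = 4), bars give mean and SD, and within each sample the S phase value of Malat1 lies below that of G2 and mitosis, though the Parse ranges of these classes overlap.

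Both RNAs were lower in cycling than in resting double-positive cells. Malat1 in DP-R cells was 18066, 21208, 16625 and 17960 CPM in Parse samples 1 to 4 and 20642, 19642, 22753 and 20638 CPM in Mini samples 1-A, 1-B, 2-A and 2-B. In DP-P cells of the same samples it was 10095, 13174, 9727 and 10278 CPM, and 13319, 11856, 14648 and 11535 CPM. No DP-P value reached the lowest DP-R value. The log2 fold change of Malat1 was -0.78 ± 0.026 (SE), with an adjusted p of 7.55e-16 by edgeR's quasi-likelihood test over all genes.

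Neat1 moved with it. In DP-R cells it stood at 362, 279, 288 and 304 CPM in Parse samples 1 to 4 and at 328, 311, 361 and 374 CPM in Mini samples 1-A, 1-B, 2-A and 2-B. In DP-P cells it stood at 180, 175, 170 and 182 CPM, and at 197, 172, 197 and 192 CPM. These groups did not overlap either. The log2 fold change was -0.86 ± 0.040 (SE), with an adjusted p of 1.13e-13 by edgeR.

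A call in this contrast was common. Of 11719 genes tested, 74.1% passed an adjusted p of 0.05, and 38.0% passed in the lower and 36.2% in the higher direction. The members lay toward the low end of the fold changes, with 94.8% of genes above Malat1 and 96.0% above Neat1. Both were lower in 8 of 8 samples.

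The cycling clusters were also compared apart, a choice made after the data were seen. Malat1 was 7652 to 11784 CPM in S phase and 11246 to 14496 CPM in G2 and mitosis over the Parse samples, and 9252 to 12694 CPM and 13152 to 15494 CPM over the Mini samples. Against DP-R cells the log2 fold changes of Malat1 were -1.11 ± 0.042 in S phase and -0.53 ± 0.020 in G2 and mitosis (SE, edgeR). Those of Neat1 were -1.14 ± 0.062 and -0.62 ± 0.036. Within samples, both RNAs were lower in S phase than in G2 and mitosis in 8 of 8, by a median log2 ratio of -0.46 for Malat1 and -0.38 for Neat1. This last difference was not put to a test, and large clusters of both classes also raised markers of the other phase. A Mini cluster of 316 cells counted as G2 and mitosis, 210 of them from Mini sample 2-A, was led by histone genes of S phase as well as holding the mitotic markers. Without it both RNAs were still lower in S phase in 8 of 8 samples, by a median log2 ratio of -0.47 for Malat1 and -0.38 for Neat1, and G2 and mitosis stood at -0.49 and -0.65 against DP-R cells. Malat1 in G2 and mitosis cells of Mini sample 2-A was then 17762 CPM in place of 15494 CPM.

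Counts per cell went with depth. The mean number of Malat1 UMIs per cell, as the median over samples, was 77.6 in DP-P and 41.0 in DP-R cells of the Parse samples, and 90.6 and 50.4 in those of the Mini samples. Neat1 gave 1.20 and 0.643 UMIs per cell in the Parse samples. The DP-P cells were deeper, with a median of 7626 against 1966 UMIs in the Parse samples, and whether this reflects more RNA or better capture was not tested. In cells of 2000 to 4000 UMIs, DP-P cells held 26 to 36.4 Malat1 UMIs each over the 8 samples and DP-R cells 45.1 to 59.1. With cells of 2000 to 8000 UMIs outside ribosomal RNA only, the log2 fold changes were -0.83 for Malat1 and -0.94 for Neat1.

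DN cells, the earliest stage, also held less of both RNAs than DP-R cells. Malat1 was 12303 to 15445 CPM over the Parse samples and 14566 to 16582 CPM over the Mini samples, below the lowest DP-R value in 8 of 8 samples. Neat1 was 186 to 220 CPM and 148 to 198 CPM. The log2 fold changes were -0.58 ± 0.030 for Malat1 (adjusted p = 3.54e-15, edgeR) and -0.84 ± 0.066 for Neat1 (adjusted p = 1.95e-11, edgeR). DN cells were deeper too, with a median of 8237 UMIs in the Parse and 6819 UMIs in the Mini samples, and with cells of 2000 to 8000 UMIs only the values were -0.44 and -0.83. Here 61.8% of 11070 genes were called, 31.2% lower and 30.7% higher. Without TMM scaling the share of calls that were higher went from 49.6% to 61.3%, and the members stood at -0.46 and -0.73.

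**Figure D2:**
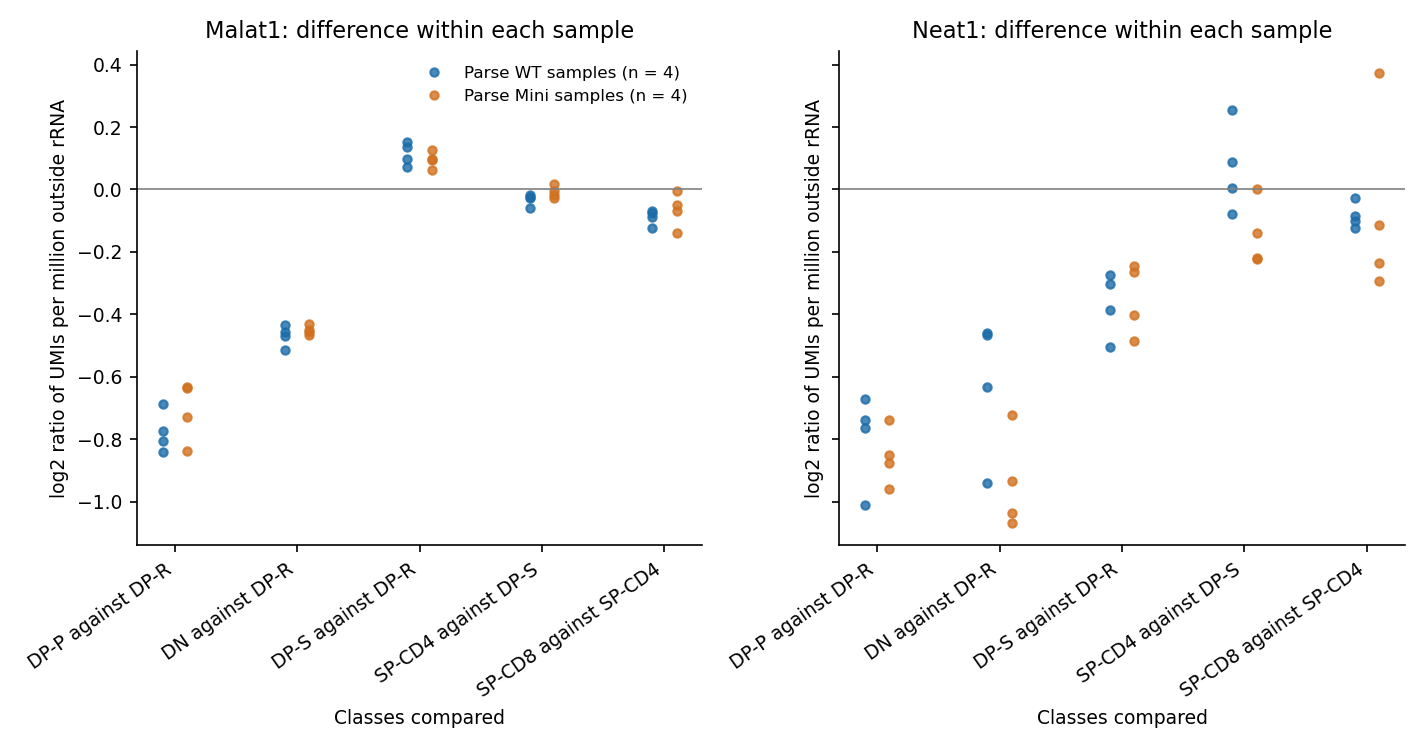
Difference between classes within each tissue sample, as the log2 ratio of CPM, for Malat1 (left) and Neat1 (right). Each point is 1 sample (blue, Parse WT, n = 4; orange, Parse Mini, n = 4), the line marks no difference, and in the DP-S comparison the Malat1 points lie above the line and the Neat1 points below it.

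From DP-R to DP-S cells Malat1 and Neat1 were called in opposite directions. Malat1 in DP-S cells was 20057, 22303, 17790 and 19752 CPM in Parse samples 1 to 4 and 21536, 20984, 24854 and 22106 CPM in Mini samples 1-A, 1-B, 2-A and 2-B. These values overlapped those of DP-R cells, but each was higher than the DP-R value of its own sample. The log2 fold change was 0.09 ± 0.027 (SE, adjusted p = 0.00834, edgeR). The call was lost when lobes were summed into mice, with an adjusted p of 0.0588 to 0.0985 over the 9 possible pairings, and without the filter on low counts, where the value was 0.027.

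Neat1 fell from DP-R to DP-S cells. It was 256, 231, 233 and 233 CPM in DP-S cells of Parse samples 1 to 4, and 273, 263, 258 and 283 CPM in those of Mini samples 1-A, 1-B, 2-A and 2-B. In each sample this was below the DP-R value. The log2 fold change was -0.37 ± 0.041 (SE, adjusted p = 6.97e-09, edgeR), and it was called under all 9 pairings of lobes. In this contrast 36.8% of 10457 genes were called, 18.3% lower and 18.5% higher.

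From DP-S to SP-CD4 cells neither RNA passed the threshold in the fit over all 8 samples. SP-CD4 cells held 17470 to 24394 CPM of Malat1 and 221 to 278 CPM of Neat1 over the 8 samples. Against DP-S cells the log2 fold changes were -0.05 ± 0.024 (adjusted p = 0.162, edgeR) and -0.05 ± 0.053 (adjusted p = 0.57, edgeR), where 28.6% of 8970 genes were called, 13.2% lower and 15.5% higher. For Neat1 the value was 0.07 in the Parse samples alone and -0.18 in the Mini samples alone, where it was called (adjusted p = 0.0418, edgeR). The DP-S classes of the kits are not alike. Most Mini DP-S cells (1273 of 1799) come from a cluster led by Myof, Tox and Cd5, and the Parse cluster led by Tox and Arap2, which shares those genes, is the unnamed one of 2588 cells. With that cluster counted as DP-S, a choice made after the data were seen, Neat1 in SP-CD4 cells was at -0.11 (adjusted p = 0.048, edgeR), and Malat1 and Neat1 in DP-S against DP-R cells were at 0.09 and -0.30, both called. With that cluster left unnamed, Neat1 in SP-CD4 against DP-S cells was compared between the experiments. The difference had an exact two-sided permutation p of 0.0571 (4 against 4 samples, smallest possible 0.0286), 0.6 after adjustment over 14 such comparisons.

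SP-CD8 cells held 16649 to 22164 CPM of Malat1 and 184 to 286 CPM of Neat1. Against SP-CD4 cells Malat1 was at -0.07 ± 0.027 (adjusted p = 0.057, edgeR), and its level was lower in 8 of 8 samples. Neat1 was at -0.06 ± 0.059 (adjusted p = 0.523, edgeR). In this contrast 18.7% of 8801 genes were called, 8.96% lower and 9.71% higher. Malat1 passed the threshold in 5 of 9 pairings of lobes into mice, without TMM factors and without the filter on low counts, where the median of all genes also moved by -0.13 and Malat1 lay 0.0056 below it.

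Other clusters were measured too. Cells with markers of both DP-S and SP-CD4 held Neat1 at 190 ± 27.0 CPM in the Parse samples and 179 ± 13.2 CPM in the Mini samples (SD, n = 4 each). The ranges overlapped those of DN cells, at 155 to 221 against 186 to 220 CPM in the Parse samples and 160 to 191 against 148 to 198 CPM in the Mini samples. Malat1 in them stood at 19803 ± 2365 and 22327 ± 1680 CPM. Their ratio of Malat1 to Neat1 UMIs had medians of 104 and 118, against 58.4 and 63.0 in DP-R cells. A cluster of 200 Parse cells led by Vcam1 and H2-Eb1, with markers of both macrophages and antigen-presenting cells, gave 522 CPM of Neat1 and 19619 CPM of Malat1 when pooled.

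Genes that encode partners of these RNAs are known, and lists of them were counted in the same fits. Of 15 paraspeckle protein genes, 11 rose and 2 fell from DP-R to DP-P, with a median log2 fold change of 0.17, against -0.02 over all genes. Taf15, an RNA-binding protein gene, rose by 0.65 ± 0.028, and Nudt21, which encodes a subunit of the cleavage factor that chooses polyadenylation sites, by 0.62 ± 0.048. The SS18 relative Ss18l1 fell by 0.46 ± 0.086. In DN cells 7 rose and 3 fell, but without TMM factors 10 rose and 0 fell, beside 61.8% of all genes called.

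Of 22 nuclear speckle and SR protein genes, 15 rose and 5 fell in DP-P cells, with a median of 0.18. The splicing factor genes Srsf2, Srsf10 and Srsf1 rose by 1.08 ± 0.042, 0.90 ± 0.042 and 0.74 ± 0.037 (SE). In DP-S cells 3 rose and 4 fell, among them Srsf5 at -0.39 ± 0.042, beside 36.8% of all genes called. The shares of each list called in DP-P cells stand beside the 74.1% of all genes called there.

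Of 12 genes for RNase P subunits, 3′ end processing and m6A factors, 10 were tested in DP-P cells, where 5 rose and 1 fell. The RNase P subunit genes Rpp30 and Rpp14 rose by 0.67 ± 0.087 and 0.42 ± 0.082. Ythdc1, which encodes a nuclear reader of m6A, fell by 0.39 ± 0.029.

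Other lncRNA genes did not share 1 direction. Of 7 genes with nuclear RNA, 5 were tested in DP-P cells, where 2 rose and 2 fell. Xist, which coats the inactive X chromosome, was at 0.76 ± 0.026, and Firre, an X-linked nuclear RNA, at -0.90 ± 0.042. Of 11 snoRNA host genes, 10 were tested and 9 rose, with a median of 0.58. Snhg1 and Gas5 were at 1.34 ± 0.080 and 0.77 ± 0.042. These hosts are spliced transcripts whose introns hold small nucleolar RNAs. In SP-CD4 against DP-S cells, 1 paraspeckle gene rose and 4 fell (1 rose and 1 fell without TMM factors), and 2 speckle genes rose, beside 28.6% of all genes called. In SP-CD8 against SP-CD4 cells 2 paraspeckle genes and 1 speckle gene fell, beside 18.7% of all genes called.

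The number of UMIs per cell was compared within the DP-R class, which pools clusters of different median depth. In DP-R cells of 1000 to 2000 UMIs outside ribosomal RNA, Malat1 was 20613, 21527, 17223 and 18826 CPM in Parse samples 1 to 4 and 22162, 22004, 24449 and 22545 CPM in Mini samples 1-A, 1-B, 2-A and 2-B. In those of 4000 to 8000 UMIs it was 16627, 21115, 15627 and 17392 CPM, and 18995, 18194, 21692 and 19123 CPM. The deeper cells had the lower share in 8 of 8 samples, though the 2 sets of values overlapped.

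The mean log2 ratio of deep over shallow cells was -0.19 ± 0.092 for Malat1 (SD, n = 8), with an exact two-sided sign-flip permutation p of 0.00781, the smallest 8 samples allow, and 0.0156 after adjustment over both genes. For Neat1 it was 0.05 ± 0.12 (SD, n = 8), with an exact permutation p of 0.32, and the ratio was higher in 5 of 8 samples. With the comparison made within each cluster with at least 20 cells in both bins, a choice made after the data were seen, the mean log2 ratio was -0.18 ± 0.084 for Malat1 (SD, lower in 8 of 8 samples) and 0.07 ± 0.12 for Neat1. Lobes of 1 mouse are not independent, so these p-values are too small, and 4 mice could reach only 0.125. Over 8352 genes with at least 200 UMIs in these cells the median log2 ratio was 0.0028, and 8.29% of them lay below Malat1.

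**Figure D3:**
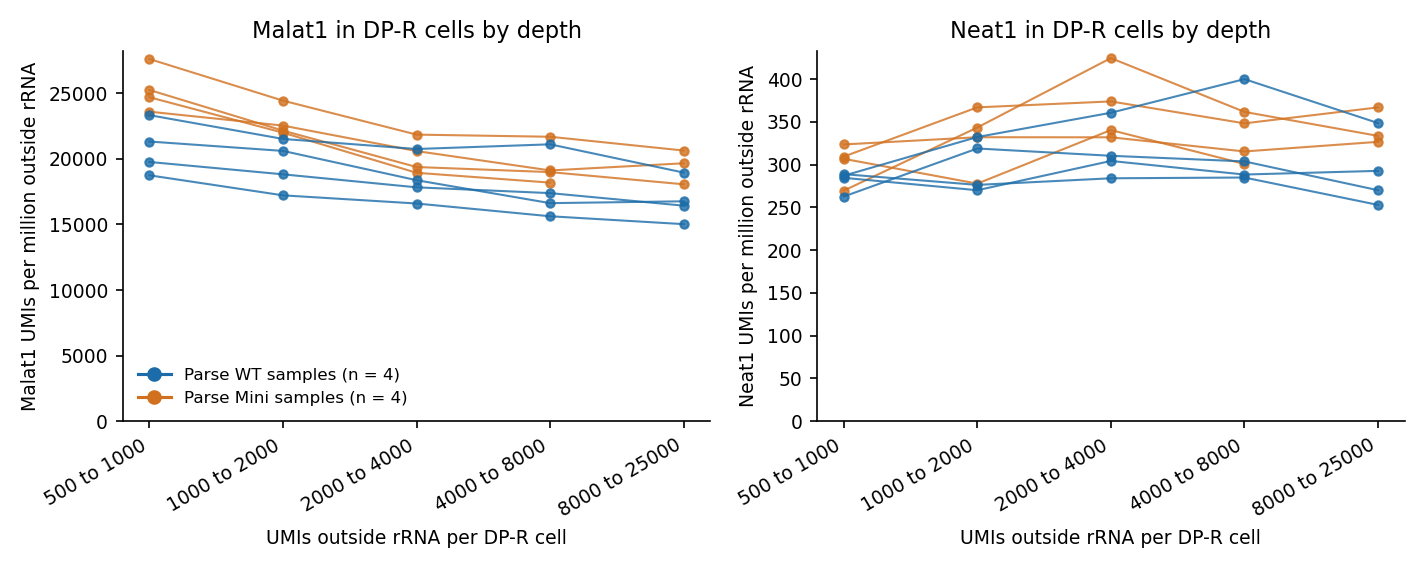
Malat1 (left) and Neat1 (right) in DP-R cells by the number of UMIs outside ribosomal RNA per cell. Each line is 1 tissue sample (blue, Parse WT, n = 4; orange, Parse Mini, n = 4), bins under 50 cells are left out, and each Malat1 line is lower at 4000 to 8000 than at 1000 to 2000 UMIs, with small rises between other bins in 3 samples.

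In DP-P cells the order was the other way round. Malat1 averaged 9956 ± 1386 CPM in cells of 2000 to 4000 UMIs and 12527 ± 2073 CPM in those of 8000 to 25000 (SD, n = 8), as a description. The shallowest DP-P cluster of each kit was an S phase cluster, at a median of 5586 (Parse) and 3726 UMIs (Mini). The larger S phase cluster of each kit was deep, at a median of 8854 (Parse) and 7533 UMIs (Mini). S phase cells held less Malat1 than G2 and mitosis cells. Depth and phase were not told apart here, since DP-P cells were not compared within clusters. The share of ribosomal RNA in DP-R cells also went with Malat1. With the cells of each sample in 4 equal groups by that share, in the group with the least ribosomal RNA Malat1 averaged 21169 ± 2566 CPM, and in that with the most 18223 ± 2188 CPM (SD, n = 8), lower in 8 of 8 samples. Neat1 averaged 336 ± 41.4 and 321 ± 47.7 CPM. Both ribosomal RNA and depth are read from the same cells, and their part in the Malat1 level was not tested.

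Levels also differed between wells. Between first-round wells of 1 thymic sample the highest level of Malat1 was 1.03 to 1.26 times the lowest, and that of Neat1 1.03 to 1.61 times. In the 16 other samples these ratios reached 1.58 and 1.87. The thymic cells gave 15476 to 16053 CPM of Malat1 over the 9 sublibraries of the WT kit and 18003 and 18474 CPM over the 2 of the Mini kit.

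At equal depth cells of 1 class still differed. With each DP-R cell thinned to 1000 UMIs, the variance of Malat1 counts was 2.41 to 3.07 times their mean over the 8 samples, where pure counting noise would give about 1. For Neat1 it was 1.05 to 1.12 times. The cells of a sample pool wells, clusters and original depths, and the part of each in this spread was not tested. Spearman's correlation of Malat1 and Neat1 over the thinned DP-R cells of a sample lay between -0.07 and 0.04. The points share a cell's UMIs, and a value this weak in sparse counts says nothing about either gene.

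**Figure D4:**
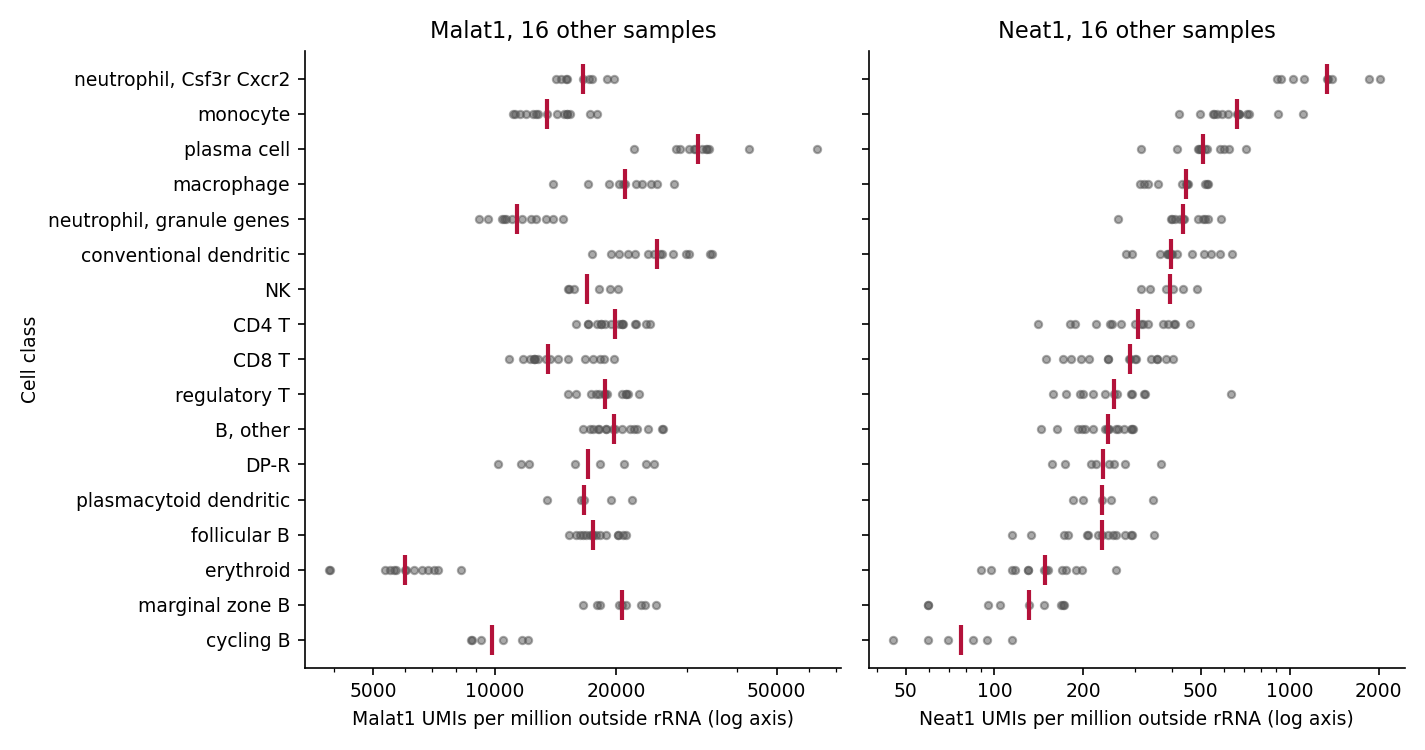
Malat1 (left) and Neat1 (right) in classes of the 16 other Parse WT samples, in CPM outside ribosomal RNA on a log axis. Each grey point is 1 sample with at least 50 cells of the class, red marks the median, and classes are ordered by Neat1, with neutrophil-like cells led by Csf3r and Cxcr2 at the top.

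In the 16 other samples Malat1 lay between 11765 and 23241 CPM (median 16912) and Neat1 between 178 and 410 CPM (median 298). The B cell genes Pax5 and Ms4a1 had medians of 1272 and 326 CPM there. Within them the cell classes spread further than thymocyte stages.

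Neat1 was highest in a neutrophil-like class and in monocyte-like cells. Neutrophil-like cells with Csf3r and Cxcr2, receptors of mature neutrophils, had a median of 1340 CPM (908 to 2028 over 9 samples), and monocyte-like cells 662 CPM (422 to 1111 over 15 samples). In a cluster of 611 of the 1149 Csf3r and Cxcr2 cells, 5 of 9 neutrophil markers were raised. The mean log2 rise of neutrophil markers there was 0.23, against 0.30 for follicular B markers, so that cluster is named by its leading genes. Neutrophil-like cells with granule genes, which mark earlier stages, had 437 CPM (263 to 584 over 12 samples). This range lies wholly below that of the Csf3r and Cxcr2 cells. Plasma cell-like cells had 509 CPM and macrophage-like cells 444 CPM, with overlapping ranges. Cycling B cells were lowest, at 77.3 CPM (45.3 to 115 over 6 samples), and marginal zone B-like cells stood at 131 CPM against 232 CPM in follicular B-like cells, with overlapping ranges.

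Malat1 followed another order. Plasma cell-like cells were highest, at a median of 32004 CPM (22180 to 62830 over 12 samples), then conventional dendritic-like cells at 25290 CPM. Erythroid-like cells were lowest, at 6011 CPM (3888 to 8245 over 14 samples), then cycling B cells at 9862 CPM. CD8 T-like cells had 13586 CPM and CD4 T-like cells 19896 CPM, with ranges that overlapped. The median ratio of Malat1 to Neat1 UMIs ran from 14.2 in the neutrophil-like cells with Csf3r and Cxcr2 to 177 in marginal zone B-like cells.

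Markers of macrophages and neutrophils were near 0 in DP-R cells. In DP-R cells of the Parse samples the macrophage genes Adgre1 and C1qa gave 0.744 and 0.217 CPM, against 347 and 295 CPM in the macrophage-like cells of the other samples and 73.1 and 95.9 CPM in the Parse cluster led by Vcam1 and H2-Eb1. Neat1 gave 303 CPM in the DP-R cells, and 442 and 522 CPM in those cells. The neutrophil gene S100a9 gave 2.98 CPM in DP-R and 594 CPM in the neutrophil-like cells of the Parse samples, where Neat1 gave 319 CPM.

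Genes around the locus were far lower than Malat1. Within 150000 bases of either gene, 25 other annotated genes were in the gene list. In DP-R cells of the Parse samples the highest was Frmd8, on the Neat1 side, at 65.5 CPM. In DP-P cells Frmd8 was at 53.1 CPM, and Pola2, which encodes a subunit of DNA polymerase alpha, was the highest of them at 64.1 CPM, against 25.1 CPM in DP-R cells. Gm37376, annotated on the opposite strand inside Malat1 at chr19:5801941-5802393, gave 28.2 CPM, and since no source used here states that counting used the strand, its reads and those of Malat1 cannot be told apart.

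The genes with the most similar pattern over classes were found by Pearson's r of log2(CPM + 1) over class medians. Over 14 thymic classes and 9014 genes, Malat1 was most like Dlgap4 (r = 0.92), Il4ra (0.88), Nckap1l (0.87), Parp4 (0.86) and Usp32 (0.85). Neat1 was most like Selenop (0.93), Ctsd (0.91), Lsp1 (0.89), Fmnl2 (0.89) and Sgk1 (0.89). Between Malat1 and Neat1 themselves r was 0.44. Over 17 classes of the other samples and 10175 genes, Malat1 was most like Prpf40b, Papss1, Catspere2, Snap47 and A530072M11Rik (0.85 to 0.87), and Neat1 most like Gm44503, Ndel1, Fosl2, Ccpg1 and Csf3r (0.82 to 0.85). Some thymic classes rest on few samples. The Parse cluster with markers of macrophages and antigen-presenting cells had enough cells in only 1 sample, and Neat1 was highest there, at 557 CPM. In the other samples Neat1 was highest in the neutrophil-like class led by Csf3r itself, at a median of 1340 CPM. How far the r values rest on these classes was not tested. Classes share libraries and differ in depth, and these values are descriptions.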

How the data were processed

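The authors deposited unnormalised UMI counts per cell and gene, made with split-pipe on the mm10 reference. Its version and strand setting: not given in the sources used here. Each cell table has 8 columns left unused. The thymic samples held 28057164 to 124106974 UMIs. Intervals of counts cover counting error only.

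Cells outside 500 to 25000 UMIs, or above 15% mitochondrial UMIs, were dropped. Doublets were called by a classifier on simulated doublets (lightgbm 4.6.0, 5 seeds) and removed before clustering. Levels of whole samples, wells and sublibraries still include them. Without them the thymic samples held 3919 to 13434 cells, and Neat1 was found in 42.2% to 51.5% of cells. In each seed the calls were limited to the share expected from barcode collisions. They took 1.14% to 5.30% of the cells of a thymic sample. The study called a far larger share in both Parse libraries with scDblFinder, so doublets may remain, also in the deep DP-P class. The alternative that keeps the called doublets changes only the small share called here and cannot show the effect of those that remain. Barcodes repeated in no table. Thymic cells were integrated by reciprocal PCA on 3000 features with Seurat 5.3.0 (resolution 1.5), and other cells clustered with scanpy 1.11.5 (resolution 2). Classes of at least 50 cells per sample were summed and compared by edgeR 4.0.16 (quasi-likelihood, tissue sample and class as terms, TMM, filterByExpr, Benjamini-Hochberg over all genes tested). On data simulated for DP-P against DP-R over 11719 genes, 99% of 2-fold and 87% of 1.5-fold changes were recovered, with 18 false calls. The simulation changed few genes, in equal numbers up and down, while 74.1% were called in the data. It therefore cannot show how the scaling does under so broad a change. SEs are the log2 fold change over the root of F. The depth bins used an exact sign-flip permutation test.

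Named genes were the members, in each list up to 4 genes with the largest change past the threshold, genes within 150000 bases, and the 5 genes nearest in pattern among those of at least 20 CPM in a class. Members, lists and rules were chosen with earlier results of these data known. DESeq2 1.42.0, other scalings, filters, depths and samples were alternatives.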

Additional observations from a re-analysis of the deposited data

Results flagged for a closer look

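Of 50 groups of samples examined, 5 held a sample far from the rest by Dixon's criterion, where chance gives about 1 in 20. Malat1 in DP-P cells of Parse sample 2 was 13174 CPM, against 9727 to 10278 CPM in the other Parse samples. Neat1 in DP-S cells of Parse sample 1 was 256 CPM, against 231 to 233 CPM. Neat1 in G2 and mitosis cells of Mini sample 1-B was 190 CPM, against 218 to 222 CPM in the other Mini samples, and without the Mini cluster led by histone genes these samples stood at 196 to 218 CPM. The log2 ratio of Malat1 in DN against DP-R cells was -0.51 in Parse sample 1, against -0.47 to -0.43 in the other 7. That of Neat1 in SP-CD8 against SP-CD4 cells was 0.37 in Mini sample 2-A, against -0.29 to -0.03. No cause was tested.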

How the results depend on the processing

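The fold changes of both RNAs in DP-P and DN cells, and of Neat1 in DP-S cells, kept direction and call under every alternative run. Leaving out each sample in turn gave Malat1 -0.81 to -0.77 and Neat1 -0.89 to -0.84 in DP-P cells. Malat1 in DP-S against DP-R cells lost its call without the filter on low counts (0.027, adjusted p = 0.693) and with lobes summed into mice (0.083 to 0.091). Without that filter the median of all genes moved by -0.17 in this contrast, so that Malat1 lay 0.20 above it, the share of calls that were higher was 38.1% in place of 50.2%, and in SP-CD8 against SP-CD4 cells it was 37.1% in place of 52.0%. Neat1 in SP-CD4 against DP-S cells was 0.069 in the Parse samples alone, -0.18 in the Mini samples alone (called) and -0.11 with Parse cluster 0 counted as DP-S (called, chosen after seeing the data). Malat1 in SP-CD8 against SP-CD4 cells passed the threshold at -0.077 without TMM factors, -0.085 with ribosomal RNA in the library size, -0.14 without the filter and -0.088 in the lowest pairing of lobes. The Mini samples alone called 2242 genes in DP-S and 753 in SP-CD8 cells, and the cause was not tested. DESeq2 called 1714 genes in SP-CD4 cells in place of 2567. The depth ratio of Malat1 was -0.15 in the Parse and -0.23 in the Mini samples alone, which 4 samples cannot call, and that of Neat1 was -0.035 for 8000 to 25000 UMIs. With all UMIs as denominator the mean levels of Malat1 were 12186 CPM (Parse) and 15651 CPM (Mini) and those of Neat1 185 and 224 CPM. The mean of cell shares gave 20725 and 281 CPM in the Mini samples. Between the kits, no paired analysis was possible because the numbers they share in the labels are sublibraries, which are splits of pooled cells. Within the kits, class fits held the tissue sample as a term and the depth test compared cells of the same sample. Counts of Neat1 in small classes limit its precision.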
